A study of Mus musculus with 29 samples.

Results

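The expression of 9 genes of iron uptake, iron storage, iron export and heme breakdown was followed in mouse podocytes, the epithelial cells that form the filtration barrier of the glomerulus, during a partial loss of podocytes. The genes are Tfrc, Steap3, Slc11a2, Fth1, Ftl1, Slc40a1, Hmox1, Ireb2 and Aco1. They were taken by symbol, through the RefSeq accession that the array gives for each probe, and all 9 were among the 15624 genes tested, of 20141 genes named on the array. The 9 were chosen by function with results of these comparisons known, so their differences are described here without a p-value, and counts of them are set beside the share of all genes. The 29 one-colour arrays held podocyte RNA of 16 male C57BL/6J mice of the line Pod-hCD25T/G, aged 8 weeks. TdTomato podocytes were represented by 4 arrays at day 0, 4 at day 1, 4 at day 4 and 2 at day 7, and EGFP podocytes by 4, 3, 4 and 4 arrays on the same days. Day 0 mice were sampled before LMB2, and the mice of days 1, 4 and 7 after 25 ng of LMB2 per gram of body weight. LMB2 is an immunotoxin: its antibody part binds human CD25, and its Pseudomonas exotoxin part stops translation in the cells that take it up. From what is known of the model, and not from the labels, the TdTomato podocytes carry human CD25 and are hit by the toxin, while the EGFP podocytes of the same glomeruli lack it. The labels name a heminephrectomy for the samples of all groups, and do not settle if it applied before day 0. Different animals were used on each day, 13 mice gave both populations, and sorting by fluorescence keeps podocytes that survived to be sorted.

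Cells take up iron by binding transferrin to the transferrin receptor, reducing the iron in endosomes and carrying it to the cytosol through a divalent metal transporter. Ferritin, a shell of heavy and light chains, stores what is not used, and ferroportin is the exporter that the hormone hepcidin closes. Iron regulatory proteins sense cytosolic iron and bind hairpins in target mRNAs, which stabilises the transferrin receptor mRNA and blocks ferritin translation when iron is low, so mRNA levels are a partial readout of ferritin. Heme oxygenase opens the heme ring and frees its iron, and its gene is held down by BACH1 and induced by NRF2, both of which bind antioxidant response elements.

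The promoters of Tfrc, Fth1 and Ftl1 are shown because the transferrin receptor and the ferritin chains are the genes on which uptake and storage turn, and because Fth1 and Ftl1 differed in their course. They come from RefSeq (GRCm38.p6) and run 5′ to 3′ on the gene's strand, from 250 bases before the start site to 50 after it. Promoters of 6 of the 9 genes were matched, in 11 windows of 300 bases, since several genes have more than 1 start. None was matched for Hmox1, Slc40a1 or Slc11a2, so their promoters were not searched. Tfrc lies on chromosome 16, and the window at chr16:32608646-32608945 is on the plus strand. Fth1 lies on chromosome 19 with plus-strand windows at chr19:9980350-9980649 and chr19:9982396-9982695. Ftl1 lies on chromosome 7 with a minus-strand window at chr7:45459837-45460136. Capitals mark ACGTG, the core letters of the hypoxia response element.
Tfrc: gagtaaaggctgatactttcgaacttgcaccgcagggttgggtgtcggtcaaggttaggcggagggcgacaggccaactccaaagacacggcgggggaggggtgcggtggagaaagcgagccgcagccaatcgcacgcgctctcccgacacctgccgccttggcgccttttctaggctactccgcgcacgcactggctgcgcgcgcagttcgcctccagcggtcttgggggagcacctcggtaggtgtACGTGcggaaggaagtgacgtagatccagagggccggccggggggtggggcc
Fth1, upstream start: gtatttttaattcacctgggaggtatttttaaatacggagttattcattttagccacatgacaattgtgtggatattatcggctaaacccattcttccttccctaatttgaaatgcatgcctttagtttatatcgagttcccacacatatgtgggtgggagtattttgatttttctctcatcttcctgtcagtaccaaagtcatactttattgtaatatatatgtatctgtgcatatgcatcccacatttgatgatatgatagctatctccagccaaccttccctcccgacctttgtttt
Fth1, downstream start: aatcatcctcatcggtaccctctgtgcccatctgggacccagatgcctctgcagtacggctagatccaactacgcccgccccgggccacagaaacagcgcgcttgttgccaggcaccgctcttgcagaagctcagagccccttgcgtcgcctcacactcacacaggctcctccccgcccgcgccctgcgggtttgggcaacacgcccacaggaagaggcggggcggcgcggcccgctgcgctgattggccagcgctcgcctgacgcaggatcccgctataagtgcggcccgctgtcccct
Ftl1: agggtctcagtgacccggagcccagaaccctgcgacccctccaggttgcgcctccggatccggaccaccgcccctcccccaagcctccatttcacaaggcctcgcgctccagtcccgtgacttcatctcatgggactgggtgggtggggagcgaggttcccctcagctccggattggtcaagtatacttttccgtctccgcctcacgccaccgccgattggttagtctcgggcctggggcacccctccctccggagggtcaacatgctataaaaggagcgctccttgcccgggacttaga
GC content was 66.0% in the Tfrc window, 36.7% and 67.0% in the upstream and downstream Fth1 windows, and 63.7% in the Ftl1 window. ACGTG was searched on both strands and was found at position 249 of the Tfrc window, and in 2 of the 11 windows in all, which are 2 overlapping Tfrc windows holding the same copy. It occurs in 19.6% of all 32851 RefSeq promoter windows of this length. TGACNNNGC, the core letters of the antioxidant response element, was in 0 of the 11 windows, against 12.4% of all windows. Hmox1 is not among these windows. CACGTG, the E-box that itself contains ACGTG, was also in 0 of the 11, against 7.15% of all windows. A match or its absence describes these letters in these windows only.

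Signal is given throughout as log2 of the scanner's processed signal minus the array's 75th percentile, so that 0 is the 75th percentile of an array and 1 unit is a doubling. Levels are compared between groups for the same probe, never between genes. Between 48.2% and 65.5% of spots were well above background on each array, and no spot was saturated. Podocyte identity was checked with Nphs1, the slit diaphragm protein nephrin, which averaged 7.60 ± 0.22 at day 0, 7.13 ± 0.17 at day 1, 6.27 ± 0.10 at day 4 and 6.86 ± 0.24 at day 7 in TdTomato podocytes. In EGFP podocytes Nphs1 averaged 7.54 ± 0.31, 7.26 ± 0.32, 7.48 ± 0.17 and 7.06 ± 0.24 on the same days (SD, n as above). All 12 podocyte markers were detected in all 8 groups. In TdTomato podocytes 7 of 12 fell at day 1, 10 of 12 at day 4 and 6 of 12 at day 7 against day 0, beside 27.9%, 35.9% and 8.47% of all genes. In EGFP podocytes 0 of 12 passed limma's adjusted p of 0.05 on any day, beside 0.0256%, 0.595% and 7.26% of all genes. In whole sorted samples, fewer cells and less RNA per cell cannot be told apart. The summed linear signal of 12 proximal tubule markers ran from 2.83 to 219 on the TdTomato arrays of day 4, with a median of 3.48. It ran from 0.84 to 19.2 on the TdTomato arrays of day 0 and from 0.95 to 6.32 on the EGFP arrays of day 4. The part of tubule cells in the levels at day 4 was not tested. The TdTomato and EGFP arrays of mouse MC221 at day 7 do not match the authors' own table of values, so day 7 results are also given without that mouse. This leaves 1 TdTomato array, which the fit assumes to vary like the other groups.

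In TdTomato podocytes the transferrin receptor gene, its endosomal reductase Steap3, Fth1 and Aco1 were lower at days 1 and 4 than at day 0, Slc11a2 was higher at day 1 and lower at day 4, and Hmox1 was lower at day 1 and higher at day 4. Of the 9 genes, 7 passed an adjusted p of 0.05 at day 1, where 51.8% of all genes did. At day 4 the counts were 6 of 9, beside 57.3% of all genes, and at day 7, 5 of 9, beside 19.4%. Without mouse MC221, 0 of 9 passed in TdTomato podocytes at day 7, where the differences were -1.07 for Tfrc, -0.28 for Slc11a2, -0.31 for Fth1, -0.20 for Ftl1, 0.88 for Hmox1, 0.40 for Ireb2 and -0.63 for Aco1. In EGFP podocytes 0 of 9 passed at day 1 (0 also at an unadjusted p of 0.05), beside 0.0256% of all genes. Tfrc alone passed at day 4, where 0.595% of all genes did, and Slc40a1 alone at day 7, where 7.26% did. Since the genes were chosen with these comparisons known, the counts are descriptions. The median gene itself moved by -0.13 at day 1, -0.29 at day 4 and -0.14 at day 7 in TdTomato podocytes, and by -0.02, 0.07 and 0.00 in EGFP podocytes. The median of the 9 genes was -1.03, -0.83 and -0.21 in TdTomato podocytes and -0.13, 0.12 and 0.03 in EGFP podocytes on days 1, 4 and 7.

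**Figure D1:**
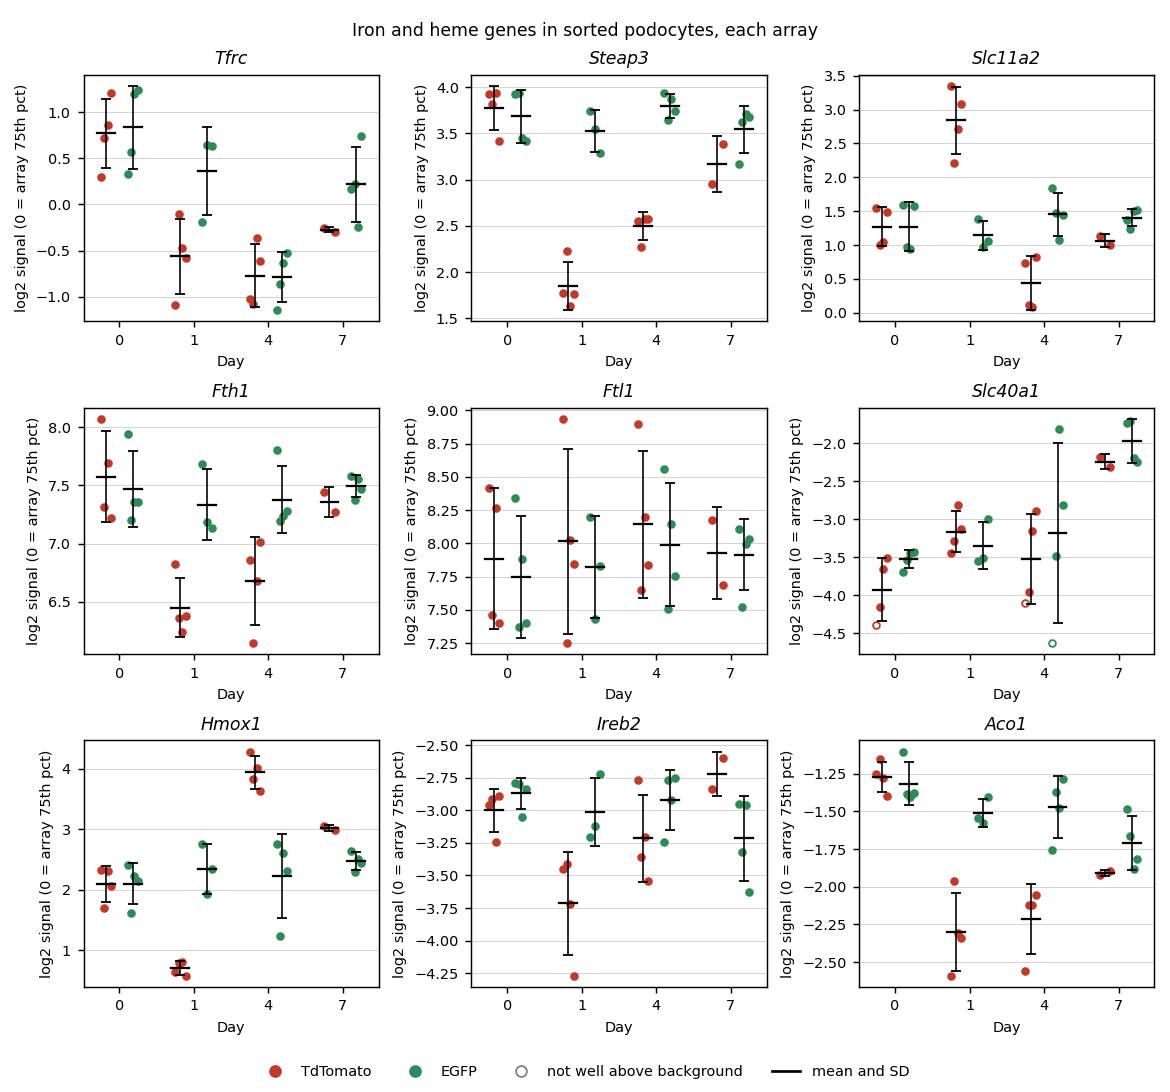
Signal of the 9 genes on each of 29 arrays, as log2 relative to the array's 75th percentile, by day after LMB2 (x axis), with TdTomato left of EGFP on each day, open points where the probe was not well above background, and bars for the mean and SD. Tfrc sits at a like low level in both populations at day 4 (means -0.77 and -0.79), while Steap3, Fth1, Slc11a2 and Hmox1 part between the populations at days 1 and 4.

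**Figure D2:**
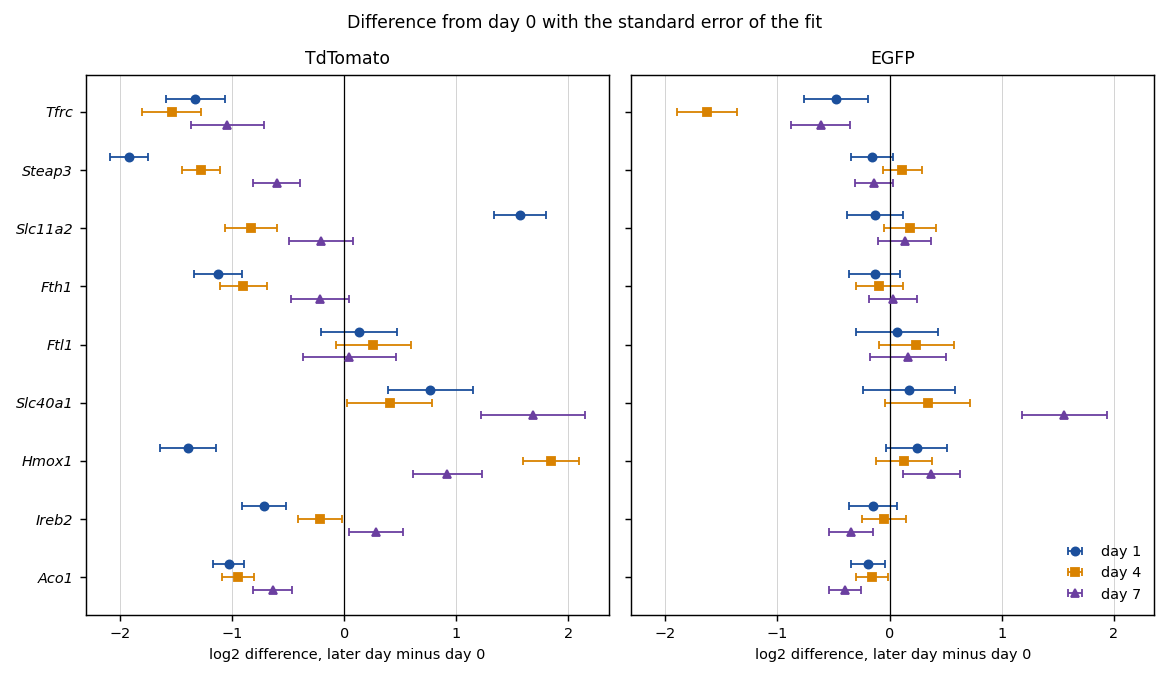
Log2 difference of days 1, 4 and 7 from day 0 for the 9 genes, with the standard error of the fit as bars, in TdTomato podocytes (left) and EGFP podocytes (right). Most EGFP points lie near 0, apart from Tfrc at day 4 (-1.63) and Slc40a1 at day 7 (1.56).

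Tfrc, which encodes the transferrin receptor that brings transferrin-bound iron into cells, was lower than at day 0 in both populations at day 4. Its signal in TdTomato podocytes was 0.30, 0.72, 0.86 and 1.21 at day 0, -1.09, -0.11, -0.47 and -0.58 at day 1, -1.02, -1.08, -0.37 and -0.61 at day 4 and -0.26 and -0.30 at day 7. In EGFP podocytes it was 0.33, 0.57, 1.20 and 1.24 at day 0, -0.19, 0.64 and 0.63 at day 1, -1.14, -0.86, -0.64 and -0.53 at day 4 and 0.16, 0.22, -0.25 and 0.75 at day 7. Every TdTomato array of days 1, 4 and 7 lay below every TdTomato array of day 0, and the EGFP arrays of day 4 lay below all EGFP arrays of days 0 and 1. The TdTomato difference from day 0 was -1.33 ± 0.27 at day 1 (2.51-fold lower), -1.54 ± 0.27 at day 4 (2.91-fold lower) and -1.05 ± 0.33 at day 7 (2.06-fold lower; SE of the fit). The EGFP difference was -0.47 ± 0.29 at day 1, -1.63 ± 0.27 at day 4 (3.09-fold lower) and -0.61 ± 0.27 at day 7. Thus the EGFP level was below day 0 by a like amount at day 4 but stood 1.01 higher at day 7 than at day 4 with the brightest probe. The size of that step depended on the probe: the other Tfrc probes gave 1.11 and 0.36. With the mean of probes it was 0.83 and did not pass the threshold.

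Against EGFP, Tfrc in TdTomato podocytes differed by -0.07 ± 0.27 at day 0, -0.92 ± 0.29 at day 1, 0.02 ± 0.27 at day 4 and -0.50 ± 0.33 at day 7. Within the same mouse the TdTomato value was below the EGFP value in 3 of 3 mice at day 1 (-1.10 to -0.75) and in 2 of 4 at day 4 (-0.22 to 0.27). In order of level, the day 0 groups of both populations were highest, EGFP at days 1 and 7 came next, and TdTomato at days 7, 1 and 4 and EGFP at day 4 were lowest. The single gap in that order without overlapping arrays lay between EGFP at day 7 and TdTomato at day 7. The other Tfrc probes gave 0.03 and 0.17 for TdTomato against EGFP at day 7, so the sign there depends on the probe, and -0.53 and -1.09 at day 1. Against day 0 they gave the same directions as the brightest probe: -1.56, -1.79 and -0.69 and -1.41, -1.43 and -0.88 in TdTomato podocytes on days 1, 4 and 7. In EGFP podocytes they gave -0.92, -1.72 and -0.61 and -0.50, -1.59 and -1.23. The first of these probes was well above background on 16 of 29 arrays only. Between arrays of the same slide, the day 4 difference from day 0 ran from -1.82 to -1.23 in TdTomato podocytes and from -1.83 to -1.43 in EGFP podocytes, over 4 slides. Among the markers of red blood cells, which hold much transferrin receptor as precursors, Ermap was well above background on all 29 arrays, Slc4a1 on all but 1 and Hba-a2 on all but 2, whereas Klf1, Gata1 and Rhag were on none. Their part in the Tfrc level was not tested.

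Steap3, the ferrireductase that works beside the receptor in endosomes, was lower in TdTomato podocytes at days 1, 4 and 7. Its TdTomato signal was 3.93, 3.81, 3.93 and 3.42 at day 0, 1.78, 2.23, 1.64 and 1.76 at day 1, 2.56, 2.27, 2.58 and 2.57 at day 4 and 2.96 and 3.38 at day 7. Its EGFP signal was 3.92, 3.94, 3.45 and 3.42 at day 0, 3.75, 3.55 and 3.29 at day 1, 3.94, 3.64, 3.87 and 3.74 at day 4 and 3.17, 3.62, 3.71 and 3.68 at day 7. No TdTomato array of days 1, 4 or 7 reached the lowest TdTomato array of day 0, whereas the EGFP ranges of all later days overlapped day 0. The TdTomato difference was -1.92 ± 0.17 at day 1 (3.79-fold lower), -1.28 ± 0.17 at day 4 (2.43-fold lower) and -0.60 ± 0.21 at day 7 (1.52-fold lower). The EGFP difference was -0.16 ± 0.19, 0.12 ± 0.17 and -0.14 ± 0.17. The second Steap3 probe gave -1.73, -0.99 and -0.52 in TdTomato podocytes. At each step the TdTomato level moved back toward day 0, by 0.64 ± 0.17 between days 1 and 4 and by 0.68 ± 0.21 between days 4 and 7. Without mouse MC221 the day 7 difference was -0.39.

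Slc11a2, the divalent metal transporter DMT1 that carries reduced iron out of endosomes, was on opposite sides of day 0 at days 1 and 4 in TdTomato podocytes. The TdTomato signal was 1.55, 1.00, 1.05 and 1.48 at day 0, 3.35, 2.22, 2.71 and 3.08 at day 1, 0.74, 0.11, 0.09 and 0.82 at day 4 and 1.13 and 0.99 at day 7. The EGFP signal was 1.60, 0.97, 0.94 and 1.57 at day 0, 1.39, 0.98 and 1.06 at day 1, 1.84, 1.47, 1.07 and 1.44 at day 4 and 1.37, 1.24, 1.50 and 1.51 at day 7. All TdTomato arrays of day 1 were above, and all of day 4 below, every TdTomato array of day 0, while the EGFP groups overlapped throughout. Relative to day 0, TdTomato podocytes differed by 1.57 ± 0.23 at day 1 (2.97-fold higher), -0.83 ± 0.23 at day 4 (1.78-fold lower) and -0.21 ± 0.28 at day 7. The EGFP difference was -0.13 ± 0.25, 0.18 ± 0.23 and 0.13 ± 0.23. At day 4 the TdTomato level was 5.29-fold lower than at day 1. A second Slc11a2 probe gave 1.26 at day 1 and -0.49 at day 4, but 0.49 at day 7, where the brighter probe gave -0.21, so the probes disagree in sign at day 7. In EGFP podocytes the second probe gave 0.46 at day 7.

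Of the ferritin subunits, Fth1 was lower in TdTomato podocytes at days 1 and 4, and the Ftl1 arrays of all later days overlapped those of day 0. Fth1 encodes the heavy chain, which oxidises iron for storage, and its TdTomato signal was 8.07, 7.31, 7.70 and 7.22 at day 0, 6.83, 6.36, 6.24 and 6.38 at day 1, 6.86, 6.15, 6.68 and 7.02 at day 4 and 7.45 and 7.27 at day 7. Its EGFP signal was 7.94, 7.21, 7.36 and 7.36 at day 0, 7.68, 7.19 and 7.13 at day 1, 7.80, 7.19, 7.23 and 7.28 at day 4 and 7.58, 7.38, 7.56 and 7.47 at day 7. The TdTomato arrays of days 1 and 4 lay below those of day 0 without overlap, those of day 7 overlapped, and EGFP overlapped on all days. The TdTomato difference was -1.13 ± 0.21 at day 1 (2.18-fold lower), -0.90 ± 0.21 at day 4 (1.87-fold lower) and -0.22 ± 0.26 at day 7. The EGFP difference was -0.13 ± 0.23, -0.09 ± 0.21 and 0.03 ± 0.21. Relative to the median gene, the TdTomato difference was -0.99 at day 1 and -0.61 at day 4.

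Ftl1 encodes the light chain, which helps form the mineral core. Its signal in TdTomato podocytes was 8.42, 7.46, 8.26 and 7.40 at day 0, 8.94, 7.25, 8.03 and 7.85 at day 1, 8.90, 7.65, 8.20 and 7.84 at day 4 and 8.18 and 7.69 at day 7. In EGFP podocytes it was 8.34, 7.37, 7.88 and 7.40 at day 0, 8.20, 7.43 and 7.83 at day 1, 8.56, 7.51, 8.15 and 7.75 at day 4 and 8.11, 7.52, 7.99 and 8.04 at day 7. All 8 groups overlapped, and arrays within a group differed more than the days did: the 4 TdTomato arrays of day 1 alone spanned 7.25 to 8.94. The spread followed the slide. Arrays of slide 1 ran from 8.11 to 8.94 and those of slide 2 from 7.25 to 7.69, with a different mouse for each day on either slide. Against day 0, TdTomato podocytes differed by 0.13 ± 0.34, 0.26 ± 0.34 and 0.05 ± 0.41 on days 1, 4 and 7, and the EGFP difference 0.07 ± 0.37, 0.24 ± 0.34 and 0.16 ± 0.34. Its 95% interval in TdTomato podocytes at day 4 ran from -0.44 to 0.96, in the fit that leaves out the slide. With quantile normalization that difference was 0.38 and passed the threshold. Between arrays of the same slide, the EGFP difference at day 4 ran from 0.13 to 0.35 and was above 0 on 4 of 4 slides. Ferritin genes have many processed pseudogenes, so their probes can pick up near-identical transcripts.

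Slc40a1, the iron exporter ferroportin, was higher at day 7 in both populations. Its TdTomato signal was -4.39, -4.16, -3.66 and -3.51 at day 0, -3.44, -3.29, -2.81 and -3.13 at day 1, -4.10, -3.96, -3.15 and -2.89 at day 4 and -2.18 and -2.31 at day 7. Its EGFP signal was -3.69, -3.54, -3.44 and -3.43 at day 0, -3.55, -3.51 and -3.00 at day 1, -4.63, -3.48, -1.81 and -2.82 at day 4 and -1.73, -1.70, -2.19 and -2.25 at day 7. Both TdTomato and all 4 EGFP arrays of day 7 lay above every array of day 0 of either population, while the EGFP arrays of day 4 spread from -4.63 to -1.81. The probe is dim: 3 of 4 arrays were well above background in TdTomato podocytes at days 0 and 4 and in EGFP podocytes at day 4, and all arrays in the other groups. The day 7 difference was 1.69 ± 0.46 in TdTomato podocytes (3.22-fold higher) and 1.56 ± 0.38 in EGFP podocytes (2.94-fold higher). The TdTomato difference was 0.76 ± 0.38 at day 1 and 0.40 ± 0.38 at day 4, and the EGFP difference 0.17 ± 0.41 and 0.34 ± 0.38. With normexp background correction in place of the scanner's, the day 7 differences were 0.68 in TdTomato podocytes and 0.72 in EGFP podocytes. Normexp also put the TdTomato difference at 0.01 at day 1 and -0.06 at day 4, and quantile normalization put that of day 4 at -0.06. The day 1 difference passed the threshold with the slide as a block or with only the groups compared, and was above 0 on 4 of 4 slides. With quantile normalization the TdTomato difference at day 7 was 1.38 and did not pass the threshold. Without mouse MC221 the day 7 differences were 1.62 in TdTomato and 1.48 in EGFP podocytes. Leaving out the TdTomato array of MC791 instead gave 1.75 in TdTomato podocytes.

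Macrophages export much iron through ferroportin, so their markers were measured beside it. The summed linear signal of 14 tested macrophage markers ran from 47.1 to 79.3 in TdTomato podocytes at day 7, against 38.8 to 56.8 at day 0, and from 22.0 to 40.4 in EGFP podocytes at day 7, against 36.8 to 64.7 at day 0. C1qa and Cd14 were the 2 of 14 that rose in TdTomato podocytes at day 7, beside 10.9% of all genes. In EGFP podocytes 0 of 14 passed (limma, 2 at an unadjusted p of 0.05), beside 7.26% of all genes. On the EGFP arrays of day 7, Csf1r, Cd74, C1qb and Itgam were well above background on all 4, and Lyz2, C1qa, C1qc, Fcgr1, Mrc1 and Tyrobp on none. Endothelial markers moved too in TdTomato podocytes at day 7, where 6 of 12 rose, beside 10.9% of all genes, with a list median of 3.28. In EGFP podocytes 0 of 12 passed, beside 7.26% of all genes (median -0.12). The summed TdTomato signal of the endothelial markers ran from 176 to 202 at day 7, against 164 to 258 at day 0, but Cldn5 outweighs the other markers in that sum. Of the 4 brightest, Cldn5 averaged 7.60 at day 0 and 6.90 at day 7 in TdTomato podocytes, Kdr 3.01 and 3.17, Ehd3 1.63 and 3.52, and Egfl7 1.11 and 4.92. The summed signal of 12 markers of mesangial and smooth muscle cells ran from 7.62 to 18.5 in TdTomato podocytes at day 7, against 3.86 to 7.96 at day 0. In EGFP podocytes it ran from 7.72 to 9.67, against 3.50 to 8.81. Acta2 averaged 2.13 and 2.19 in TdTomato and EGFP podocytes at day 7, against -0.62 and -0.29 at day 0, and Pdgfrb 1.48 and 1.32, against 1.32 and 1.42. The part of any of these cell types in the Slc40a1 level was not tested.

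Hmox1, the inducible heme oxygenase, was below day 0 at day 1 and above it at days 4 and 7 in TdTomato podocytes. The TdTomato signal was 2.33, 1.69, 2.30 and 2.06 at day 0, 0.64, 0.79, 0.80 and 0.58 at day 1, 4.29, 3.84, 4.02 and 3.63 at day 4 and 3.05 and 2.98 at day 7. The EGFP signal was 2.40, 1.62, 2.22 and 2.15 at day 0, 2.75, 1.93 and 2.34 at day 1, 2.76, 1.23, 2.60 and 2.32 at day 4 and 2.64, 2.29, 2.51 and 2.45 at day 7. In TdTomato podocytes the 4 days did not overlap at all, and in EGFP podocytes all days overlapped day 0. Set against day 0, the TdTomato level differed by -1.40 ± 0.25 at day 1 (2.63-fold lower), 1.84 ± 0.25 at day 4 (3.59-fold higher) and 0.92 ± 0.31 at day 7 (1.89-fold higher). The day 4 level was 9.46-fold higher than that of day 1 (3.24 ± 0.25), and the day 7 level differed from day 4 by -0.93 ± 0.31. The EGFP difference was 0.24 ± 0.27, 0.13 ± 0.25 and 0.37 ± 0.25.

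The second Hmox1 probe gave -1.04, 1.49 and 0.60 in TdTomato podocytes and 0.28, 0.10 and 0.51 in EGFP podocytes. Within the same mouse, TdTomato minus EGFP ran from -2.11 to -1.13 over 3 mice at day 1 and from 1.31 to 2.60 over 4 mice at day 4. Between arrays of the same slide, the TdTomato difference from day 0 ran from -1.69 to -0.90 at day 1 and from 1.56 to 2.14 at day 4, over 4 slides each. Macrophages and red blood cells can carry or induce heme oxygenase. Among 14 tested macrophage markers, Aif1 rose in TdTomato podocytes at days 1 and 4, Csf1r at day 1, and C1qa and C1qc at day 4. These stand beside 23.8% and 21.4% of all genes that rose at days 1 and 4. The summed signal of the 14 was 84.7 to 267 at day 1 and 47.8 to 117 at day 4, against 38.8 to 56.8 at day 0. Csf1r and Itgam weigh most in it. At day 1 Csf1r averaged 6.51, against 3.36 at day 0, Itgam 5.82 against 5.23, Cd74 -2.40 against -2.44 and C1qb -2.84 against -2.63. Lyz2, C1qa, C1qc, Fcgr1 and Tyrobp were well above background on 1 of 4 arrays of day 1, and Mrc1 on 0. The red cell membrane genes Slc4a1 and Epb42 rose at day 4, Ermap fell, and the summed signal of the 6 tested red cell markers ran from 1.91 to 3.01 at day 4, against 2.28 to 5.02 at day 0. Their part in the Hmox1 level was not tested.

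Of the iron sensors, Aco1 was lower on all later days and Ireb2 at day 1, both in TdTomato podocytes. Aco1 encodes iron regulatory protein 1, which is a cytosolic aconitase when it holds an iron-sulfur cluster. Its TdTomato signal was -1.25, -1.15, -1.27 and -1.39 at day 0, -2.59, -1.96, -2.31 and -2.34 at day 1, -2.56, -2.12, -2.12 and -2.06 at day 4 and -1.92 and -1.90 at day 7. Its EGFP signal was -1.10, -1.38, -1.40 and -1.38 at day 0, -1.54, -1.58 and -1.40 at day 1, -1.76, -1.37, -1.47 and -1.29 at day 4 and -1.48, -1.67, -1.88 and -1.82 at day 7. All TdTomato arrays after day 0 lay below all of day 0, and the EGFP arrays of day 7 also lay just below those of day 0. The TdTomato difference was -1.03 ± 0.14 at day 1 (2.05-fold lower), -0.95 ± 0.14 at day 4 (1.93-fold lower) and -0.64 ± 0.17 at day 7 (1.56-fold lower). The EGFP difference was -0.19 ± 0.15, -0.16 ± 0.14 and -0.40 ± 0.14. With normexp background correction the TdTomato differences were smaller, at -0.61, -0.61 and -0.27.

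Ireb2 encodes iron regulatory protein 2, which is degraded when iron is plentiful. Its TdTomato signal was -2.96, -2.91, -3.24 and -2.89 at day 0, -3.45, -3.41, -3.72 and -4.27 at day 1, -2.76, -3.35, -3.20 and -3.54 at day 4 and -2.84 and -2.60 at day 7. Its EGFP signal was -2.79, -2.80, -3.05 and -2.84 at day 0, -3.20, -3.12 and -2.72 at day 1, -3.24, -2.77, -2.92 and -2.75 at day 4 and -2.95, -3.32, -2.96 and -3.63 at day 7. Only the TdTomato arrays of day 1 lay clear of and below those of day 0. At day 7 the 2 TdTomato arrays lay just above those of day 0. Relative to day 0, TdTomato podocytes differed by -0.71 ± 0.20 at day 1 (1.64-fold lower), -0.22 ± 0.20 at day 4 and 0.28 ± 0.24 at day 7, and the EGFP difference -0.15 ± 0.21, -0.05 ± 0.20 and -0.35 ± 0.20. Relative to the median gene, the day 4 difference in TdTomato podocytes was 0.07. With quantile normalization it was -0.63.

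Before LMB2, 0 of the 9 genes passed between TdTomato and EGFP podocytes (0 also at an unadjusted p of 0.05), beside 0.0% of all genes, and the differences lay between -0.41 and 0.13. At day 1, TdTomato differed from EGFP past the threshold for 7 of 9 genes, beside 49.3% of all genes, and at day 4 for 5 of 9, beside 59.6%. At day 7 it was 0 of 9 (0 also at an unadjusted p of 0.05), beside 6.99%. The day 1 differences included 1.70 for Slc11a2, -1.68 for Steap3 and -1.64 for Hmox1. Those of day 4 included -1.02, -1.31 and 1.71 for the same genes, so Slc11a2 and Hmox1 stood on opposite sides of EGFP at days 1 and 4. The interaction, which sets the TdTomato change from day 0 against the EGFP change, was past the threshold for 5 of 9 genes at day 1, beside 38.4% of all genes. It was 5 of 9 at day 4, beside 44.4%, and 0 of 9 at day 7 (0 also at an unadjusted p of 0.05), beside 2.69%. On both days the 5 genes were Fth1, Slc11a2, Hmox1, Aco1 and Steap3. Tfrc had an interaction of -0.86 ± 0.39 at day 1 and 0.09 ± 0.38 at day 4, and Slc40a1 of 0.13 ± 0.60 at day 7. With the mouse as a replicate block the Tfrc interaction at day 1 (-0.85) passed, as it did with the slide as a block (-0.94), and Ireb2 for TdTomato against EGFP at day 1 (-0.70) was -0.51 and did not pass. The day 4 interaction of Fth1 did not pass with only the groups compared or without any one of several single arrays (-0.77 to -0.63), namely MC122 TdTomato of day 0, MC692 TdTomato of day 4, MC742 TdTomato of day 0, MC151 EGFP of day 4, MC731 EGFP of day 0, MC742 EGFP of day 0 or MC753 EGFP of day 0. That of Slc11a2 did not pass with the mean of its probes (-0.79).

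From one sampled day to the next, TdTomato podocytes differed past the threshold in 4 of 9 genes at day 4 against day 1, beside 50.4% of all genes. These were Hmox1, Steap3 and Ireb2, which were higher, and Slc11a2, which was lower. Ireb2 (0.50) did not pass with the mouse as a replicate block, no filter or only the groups compared, nor without 1 of 4 single arrays (MC542 or MC831 of day 1, MC151 or MC822 of day 4). It was 0.18 with normexp and 0.14 with quantile normalization. At day 7 against day 4 it was 3 of 9 (Steap3, Slc40a1 and Hmox1), beside 24.5%. In EGFP podocytes it was 0 of 9 at day 4 against day 1 (1, Tfrc, at an unadjusted p of 0.05), beside 0.294%, and 1 of 9, Tfrc, at day 7 against day 4, beside 4.68%. With the mouse as a replicate block, 1 of 9 passed in EGFP podocytes at day 4 against day 1 and 5 of 9 in TdTomato podocytes at day 7 against day 4.

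The 9 genes did not share a course. Over the 29 arrays, Pearson's r was 0.85 between Fth1 and Steap3, 0.84 between Aco1 and Steap3, and -0.80 between Slc11a2 and Hmox1, but 0.01 between Tfrc and Slc40a1. These values are descriptions, since the arrays share mice, slides and groups. Of 15565 other genes without missing values, those with the most alike pattern to Tfrc were Zfp54 (0.77), Pot1b (0.77) and Hunk (0.77), with r in brackets. For Steap3 they were Glg1 (0.97), Polr2f (0.97) and Mon1a (0.96), and for Slc11a2 Shroom2 (0.97), Trappc12 (0.97) and Wdr73 (0.97). For Fth1 they were Rps20 (0.96), Ergic3 (0.96) and Atp5j (0.95), and for Ftl1 Rpl34-ps1 (0.95), Rpl15 (0.93) and Rpl24 (0.91). Among these, Rps20, Rpl15 and Rpl24 encode ribosomal proteins, and Atp5j a subunit of ATP synthase. For Slc40a1 they were Ank (0.84), Srgap3 (0.83) and Nexn (0.83), and for Hmox1 Abhd14a (0.96), Anapc5 (0.95) and Mad1l1 (0.94). For Ireb2 they were Xrcc3 (0.74), Gramd1c (0.74) and Rasal2 (0.74), and for Aco1 Rilpl1 (0.94), Nek7 (0.94) and Syt9 (0.93). The highest r reached only 0.74 for Ireb2 and 0.77 for Tfrc, against 0.97 for Steap3 and Slc11a2.

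The 9 genes were set beside 137 tested genes of 149 listed in 8 groups: iron import, iron export with the hepcidin pathway, iron storage and sensing, heme synthesis, heme transport and breakdown, iron-sulfur clusters, NRF2 and BACH1 targets, and ferroptosis. These lists too were chosen with earlier results of these data known. The adjusted p-values given for their genes below, all from limma, are therefore descriptions and no independent tests. Of the 137, in TdTomato podocytes 27 rose and 60 fell at day 1, where 23.8% of all genes rose and 27.9% fell. At day 4, 26 rose and 62 fell, beside 21.4% and 35.9% of all genes, and at day 7, 16 rose and 13 fell, beside 10.9% and 8.47%. In EGFP podocytes 0 passed at day 1 (limma, 8 at an unadjusted p of 0.05) and 1 at day 4 (Steap1, which rose), beside 0.0256% and 0.595% of all genes. At day 7, 10 rose and 3 fell, beside 5.34% and 1.92% of all genes. The median of the 137 was -0.38, -0.38 and -0.16 in TdTomato podocytes on days 1, 4 and 7, against -0.13, -0.29 and -0.14 for all genes. TdTomato differed from EGFP for 0 of the 137 at day 0 (1 at an unadjusted p of 0.05), 88 at day 1, 94 at day 4 and 9 at day 7 (15 with the mouse as a replicate block), beside 49.3%, 59.6% and 6.99% of all genes. Without mouse MC221, 9 of the 137 in place of 29 passed in TdTomato podocytes at day 7. The steps between sampled days gave 81 and 33 in TdTomato podocytes and 1 and 5 in EGFP podocytes for day 4 against day 1 and day 7 against day 4, beside 50.4%, 24.5%, 0.294% and 4.68% of all genes.

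**Figure D3:**
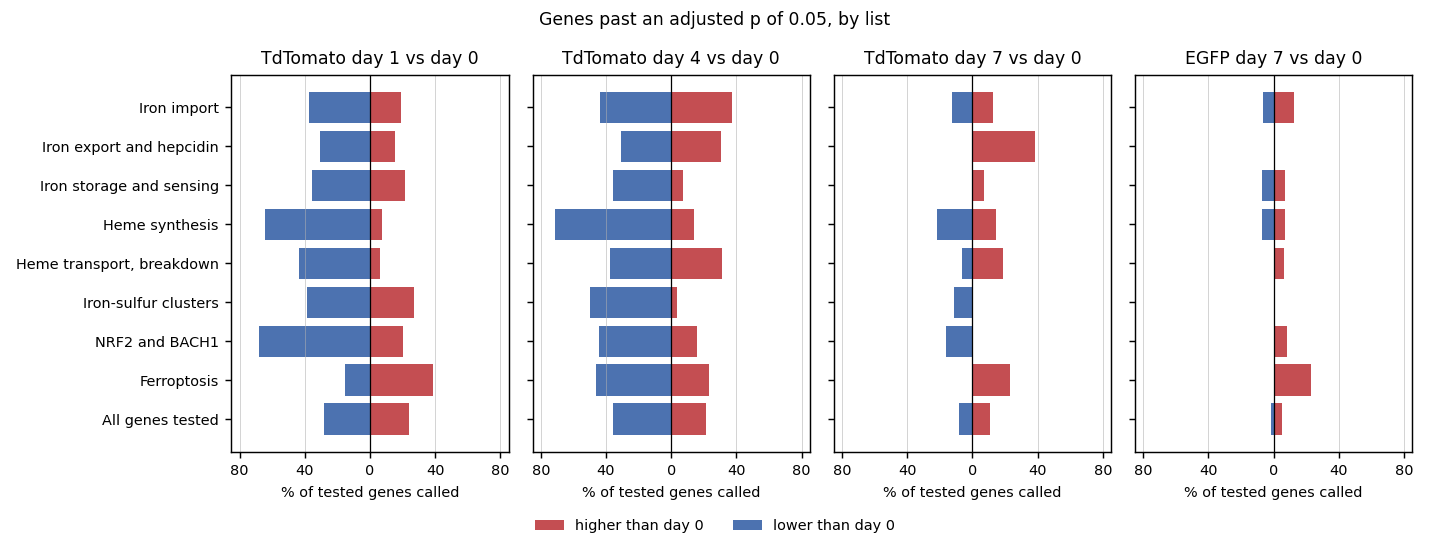
Share of the tested genes of each of 8 lists, without the 9 genes above, that passed an adjusted p of 0.05 against day 0 (x axis, percent), higher to the right and lower to the left, for TdTomato podocytes at days 1, 4 and 7 and EGFP podocytes at day 7. The bottom bars show all 15624 genes, of which 23.8% were higher and 27.9% lower in TdTomato podocytes at day 1.

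In the list of iron export and the hepcidin pathway, in TdTomato podocytes 4 rose and 4 fell at day 4 out of 13 tested, beside 21.4% and 35.9% of all genes. The listed genes that rose belong to bone morphogenetic protein signalling and its target hepcidin, the hormone that closes ferroportin. Hamp signal in TdTomato podocytes at day 4 was -1.19, -1.57, -0.28 and -1.79, and Hamp was not well above background on any TdTomato array of day 0 or any EGFP array. Hamp was at least 12.4-fold higher at day 4 than at day 0 (adjusted p = 1.87e-09, limma) and at least 8.57-fold higher than in EGFP podocytes at day 4. Hamp2, a near-identical gene copy whose probe may pick up Hamp, was 0.30, -0.19, 0.45 and -0.60 at day 4 and at least 28.3-fold higher than at day 0. Here a bound sets the measured mean against the lowest signal that was well above background on each array of the dim group, or the probe's own where higher. No p-value is given beside a bound, since the test would rest on signal not well above background. At day 1 neither was well above background, apart from Hamp2 on 1 of 4 arrays.

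Bmp6, the ligand that induces hepcidin in liver, was -2.30, -1.51, -0.91 and -0.85 at day 4, against -5.75, -4.83, -3.31 and -4.26 at day 0, with 2 of 4 day 0 arrays well above background (3.14 ± 0.83, adjusted p = 0.0026). Id1, a direct target of that signalling, was 2.99, 2.79, 3.34 and 3.07 at day 4, against 0.27, 0.50, 0.66 and 0.00 at day 0 (2.69 ± 0.30, adjusted p = 8.64e-08). EGFP podocytes at day 4 had Id1 at -0.06, -0.07, 0.20 and 0.07. At day 1, 2 rose and 4 fell in this list, beside 23.8% and 27.9% of all genes. The inhibitor Smad7 rose by 2.03 ± 0.25, and the hemochromatosis gene Hfe (-2.26 ± 0.24), the ferroxidase Heph (-1.62 ± 0.42) and the co-receptor Neo1 (-1.48 ± 0.16) fell. At day 7, beside 10.9% and 8.47% of all genes, 5 rose and 0 fell. Among these, Hamp2 was at least 10.9-fold higher than at day 0, with Bmp6 at 3.04 ± 1.02 and Bmp2 at 2.36 ± 0.79. Hamp was well above background on 1 of 2 arrays (-2.48 in MC791, beside -4.36 in MC221), so no bound is given for it. Without mouse MC221, Bmp6 and Bmp2 no longer passed at day 7 (adjusted p = 0.061 and 0.094), in a fit in which the other groups supply the spread of the 1 array left.

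**Figure D4:**
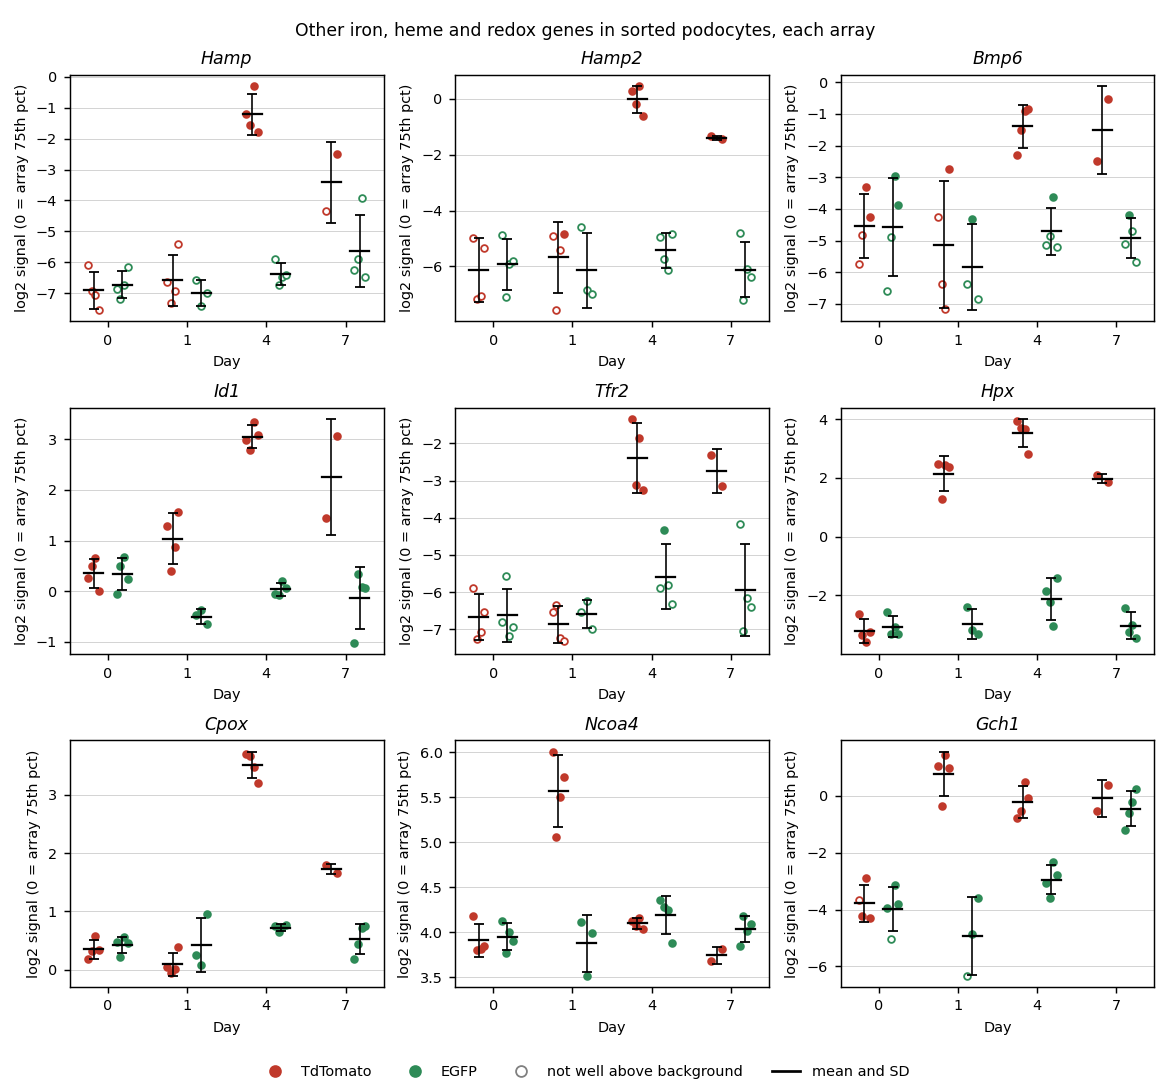
Signal of 9 other genes of iron, heme and redox biology on each of 29 arrays, drawn as for the 9 genes above, with open points where the probe was not well above background. Hamp, Hamp2 and Tfr2 are open on all TdTomato arrays of day 0 and filled on all 4 TdTomato arrays of day 4, Ncoa4 is high at day 1 in TdTomato podocytes, and Gch1 is high at day 7 in both populations.

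Of the other genes of iron import, with 16 tested, 3 rose and 6 fell in TdTomato podocytes at day 1, beside 23.8% and 27.9% of all genes. At day 4, 6 rose and 7 fell, beside 21.4% and 35.9%, and at day 7, 2 rose and 2 fell, beside 10.9% and 8.47%. Tfr2, the second transferrin receptor, was -1.34, -3.12, -1.85 and -3.24 at day 4 and not well above background on any day 0 array, which makes it at least 5.46-fold higher. It was thus opposite in direction to Tfrc on those arrays. Slc39a8, the metal importer ZIP8, was at least 3.71-fold higher at day 4, and was among the genes tested only through its TdTomato arrays of that day. The endosomal reductase family member Steap1 rose by 1.49 ± 0.29 and the surface ferrireductase Cybrd1 by 1.45 ± 0.52. At day 1 the ferritin receptor Scara5 (-1.68 ± 0.56), the lipocalin receptor Slc22a17 (-1.48 ± 0.19), the mitochondrial iron carrier Slc25a37 (-1.35 ± 0.18) and Steap2 (-1.31 ± 0.22) fell. At day 7 Tfr2 was at least 4.28-fold higher, Slc25a37 (-0.72 ± 0.22) and the endolysosomal channel Mcoln1 (-0.59 ± 0.18) were lower, and Slc39a8 passed though it was not well above background on either day.

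Of 14 tested genes of iron storage and sensing, 3 rose and 5 fell in TdTomato podocytes at day 1, beside 23.8% and 27.9% of all genes. At day 4, 1 rose and 5 fell, beside 21.4% and 35.9%, and at day 7, 1 rose and 0 fell, beside 10.9% and 8.47%. Ncoa4, the receptor that sends ferritin to lysosomes for breakdown, was 6.00, 5.05, 5.50 and 5.72 at day 1, against 4.18, 3.80, 3.81 and 3.84 at day 0, with no overlap (1.66 ± 0.17, adjusted p = 1.47e-08). EGFP podocytes at day 1 had 4.11, 3.52 and 3.99, and the TdTomato arrays of day 4 were back at 4.13, 4.07, 4.16 and 4.03. At day 1 Ncoa4 was thus higher and Fth1 mRNA lower in TdTomato podocytes, while at day 4 Fth1 mRNA alone was still lower. A link between them was not tested. The metallothionein Mt1 rose at day 1 (1.30 ± 0.49), while the hypoxia factor Epas1 (-1.65 ± 0.29) and the poly(C)-binding gene Pcbp3 (-1.37 ± 0.21) fell. At day 4 the deubiquitinase Usp11 rose (1.49 ± 0.18) and the heat shock gene Hspb1 (-1.28 ± 0.34), the autophagy gene Atg7 (-0.75 ± 0.20) and Epas1 (-0.71 ± 0.29) fell. At day 7 Prnp, the prion protein gene, rose by 0.71 ± 0.21 in TdTomato podocytes.

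Of 14 tested genes of heme synthesis, 1 rose and 9 fell in TdTomato podocytes at day 1, beside 23.8% and 27.9% of all genes. At day 4, 2 rose and 10 fell, beside 21.4% and 35.9%, and at day 7, 2 rose and 3 fell, beside 10.9% and 8.47%. The list medians were -0.80 at day 1 and -0.71 at day 4. Cpox, which encodes coproporphyrinogen oxidase, was among those that rose at day 4. Its signal was 3.70, 3.67, 3.48 and 3.21 at day 4, against 0.18, 0.32, 0.57 and 0.34 at day 0 (3.16 ± 0.17, adjusted p = 2.40e-13), and 0.75, 0.64, 0.73 and 0.77 in EGFP podocytes at day 4. The mitochondrial glycine carrier Slc25a38 fell on all later days (-1.32 ± 0.15, -1.23 ± 0.15 and -0.95 ± 0.19). Others that fell were the mitochondrial transporter Abcb10 (-2.04 ± 0.19) and the translocator protein Tspo (-1.28 ± 0.19) at day 1, Ppox, the enzyme after Cpox, at day 4 (-1.12 ± 0.16), and Alad, the second enzyme of the pathway, at day 7 (-0.65 ± 0.20). At day 7 Cpox was still above day 0 (1.37 ± 0.20).

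Of 16 tested genes of heme transport and breakdown, 1 rose and 7 fell in TdTomato podocytes at day 1, beside 23.8% and 27.9% of all genes. At day 4, 5 rose and 6 fell, beside 21.4% and 35.9%, and at day 7, 3 rose and 1 fell, beside 10.9% and 8.47%. Hpx, hemopexin, a secreted protein that binds free heme, was -2.63, -3.34, -3.59 and -3.26 at day 0, 2.49, 1.27, 2.45 and 2.39 at day 1, 3.93, 3.71, 3.66 and 2.82 at day 4 and 2.09 and 1.86 at day 7 in TdTomato podocytes. In EGFP podocytes it was -2.56, -3.32, -3.07 and -3.32 at day 0, -2.39, -3.18 and -3.33 at day 1, -1.84, -2.21, -3.06 and -1.40 at day 4 and -2.42, -3.27, -3.00 and -3.46 at day 7. Every TdTomato array after day 0 lay above every other array, and the difference from day 0 was 5.35 ± 0.34 at day 1, 6.74 ± 0.34 at day 4 (adjusted p = 1.39e-13) and 5.18 ± 0.42 at day 7. The heme-binding gene Hebp2 was at least 6.30-fold higher at day 4 than at day 0. Haptoglobin, Hp, rose by 1.15 ± 0.28 at day 4 and 1.06 ± 0.35 at day 7, and the exporter Abcg2 by 1.01 ± 0.26 and 1.23 ± 0.31. Downstream of heme oxygenase, biliverdin reductase Blvra fell at day 1 (-2.07 ± 0.20) and Blvrb at day 7 (-0.77 ± 0.26). The heme carrier Slc46a1 (-1.84 ± 0.19) and Por, the reductase that feeds electrons to heme oxygenase (-1.26 ± 0.23), also fell at day 1, the day on which Hmox1 was lowest.

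Of 26 tested genes of iron-sulfur clusters, 7 rose and 10 fell in TdTomato podocytes at day 1, beside 23.8% and 27.9% of all genes. At day 4, 1 rose and 13 fell, beside 21.4% and 35.9%, and at day 7, 0 rose and 3 fell, beside 10.9% and 8.47%. The chaperone Hspa9 rose at day 1 (1.80 ± 0.16) and was the gene that rose at day 4 (1.24 ± 0.16). Ferredoxin reductase Fdxr (-1.63 ± 0.15, -1.05 ± 0.15 and -0.54 ± 0.18) and Bola1 (-1.20 ± 0.19, -1.06 ± 0.19 and -0.95 ± 0.23) fell on all later days. The assembly genes Isca1 at day 1 (-0.99 ± 0.18), Hscb at day 4 (-0.94 ± 0.20) and Nubp2 at day 7 (-0.43 ± 0.15) fell as well. Aco1, whose product takes up such a cluster, was lower on the same days.

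Of 25 tested NRF2 and BACH1 genes, a group that shares its regulators with Hmox1, 5 rose and 17 fell at day 1, beside 23.8% and 27.9% of all genes. The list median was -1.06 at day 1. At day 4, 4 rose and 11 fell, beside 21.4% and 35.9%, and at day 7, 0 rose and 4 fell, beside 10.9% and 8.47%. At day 1 the conjugate exporter Abcc1 (2.62 ± 0.24) and the glutathione transferase Gstm1 (1.84 ± 0.45) rose, and glucose-6-phosphate dehydrogenase, G6pdx (-2.17 ± 0.26), and the epoxide hydrolase Ephx1 (-2.15 ± 0.21) fell. At day 4 Gstm1 (2.30 ± 0.45) and Mafg, the small MAF partner of NRF2 (1.31 ± 0.17), rose, and Gsta3 (-1.25 ± 0.34) and Ephx1 (-1.09 ± 0.21) fell. At day 7 Gsta3 (-1.26 ± 0.41), Gsta4 (-0.98 ± 0.28), Ephx1 (-0.75 ± 0.26) and the repressor Bach1 itself (-0.40 ± 0.14) were lower. The 11 of 25 that fell at day 4 stand beside 35.9% of all genes. TGACNNNGC was in 10 of the 28 promoter windows matched for this list (35.7%), against 12.4% of all windows.

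Of 13 tested ferroptosis genes, 5 rose and 2 fell in TdTomato podocytes at day 1, beside 23.8% and 27.9% of all genes. At day 4, 3 rose and 6 fell, beside 21.4% and 35.9%, and at day 7, 3 rose and 0 fell, beside 10.9% and 8.47%. Ferroptosis is a cell death driven by iron-dependent lipid peroxides. Gch1, which makes the antioxidant tetrahydrobiopterin, was 1.06, -0.35, 1.43 and 0.97 at day 1, against -3.66, -4.23, -2.90 and -4.31 at day 0 (4.55 ± 0.51, adjusted p = 7.95e-08), and was also above day 0 at day 4 (3.55 ± 0.51) and day 7 (3.69 ± 0.63). Slc3a2, a subunit of the cystine importer, rose at day 1 (2.72 ± 0.28), and the phospholipid remodelling gene Lpcat3 fell (-1.16 ± 0.26). Gpx4, the peroxidase that removes lipid peroxides, was higher at day 1 (0.73 ± 0.17) and lower at day 4 (-0.93 ± 0.17). Alox15, a lipoxygenase, was at least 9.78-fold higher at day 4 and was not well above background at days 0 or 7. Chac1, a stress gene that breaks down glutathione, rose at day 4 (1.63 ± 0.52) and day 7 (2.65 ± 0.63). The list holds both genes that promote and genes that oppose this death, and no death was measured here.

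In EGFP podocytes at day 7, Gch1 was -1.20, -0.62, -0.23 and 0.24, against -3.94, -5.04, -3.15 and -3.80 at day 0, with 3 of 4 day 0 arrays well above background (3.53 ± 0.51, adjusted p = 3.98e-05). Chac1 rose by 3.11 ± 0.52 (adjusted p = 2.12e-04), and Acsl4, which loads membranes with oxidisable fatty acids, by 0.75 ± 0.13. Together these were 3 of 13 ferroptosis genes, and 0 fell, beside 5.34% of all genes that rose and 1.92% that fell. The heme and urate exporter Abcg2 rose by 1.50 ± 0.26 (adjusted p = 3.10e-04, limma). It was the 1 of 16 genes of heme transport and breakdown that passed, beside 7.26% of all genes. In iron import Steap1 (1.15 ± 0.29) and Picalm, an endocytosis gene (0.65 ± 0.18), rose and Slc22a17 fell (-0.62 ± 0.19). In storage and sensing Prnp rose (0.97 ± 0.17) and Epas1 fell (-0.98 ± 0.29), and in heme synthesis Tspo rose (0.79 ± 0.19) and Slc25a38 fell (-0.59 ± 0.15). Among NRF2 and BACH1 genes malic enzyme, Me1 (1.04 ± 0.21), and sulfiredoxin, Srxn1 (0.79 ± 0.20), rose. None of the 13 tested genes of iron export or the 26 of iron-sulfur clusters passed in EGFP podocytes at day 7, beside 7.26% of all genes. At an unadjusted p of 0.05 (limma), 1 and 5 did. Without mouse MC221, Epas1 and Slc25a38 no longer passed in EGFP podocytes (adjusted p = 0.052 and 0.059).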

How the data were processed

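RNA of sorted podocytes was hybridised to one-colour Agilent arrays, and the deposited scanner files hold the intensity of each spot, which the authors read with Feature Extraction 11.5.1.1, per the file headers. The authors' deposited matrix holds normalized log2 values of the same arrays, which were used as an alternative. Of its 29 columns, 27 matched the scanner values of their own array best, and the 2 of mouse MC221 did not. Log2 of the processed signal minus the array's 75th percentile was computed here, flagged spots were left out, replicate spots averaged, and probes kept if well above background on at least 3 of 29 arrays (38196 of 55681). Probes were named through RefSeq accessions (GRCm38.p6): 26576 had 1 symbol and 29105 none. The brightest probe stood for a gene. A model of 8 group means over all 29 arrays was fitted with limma 3.58.1 in R 4.3.3, with Benjamini-Hochberg adjustment over 15624 genes at 0.05 and 17 comparisons, and was tested on simulated data. Tables were handled in Python 3.11.15 with pandas 2.3.3 and drawn with matplotlib 3.10.9. The normexp alternative used median spot signals, since the files hold no mean signal. The 9 genes, the companion lists and the marker lists were chosen with earlier results of these data known. In each companion list the named genes were the 4 with the largest fitted change past the threshold on a given day, unless fewer passed, and a few such genes are not reported here. TdTomato and EGFP samples of one animal are paired through the mouse, with a consensus correlation of 0.596 over 13 pairs, and the mouse as a block was an alternative. Other alternatives were quantile normalization, no filter, the mean of probes, the slide as a block, fitting the compared groups alone and leaving out each array. Arrays come from different mice within a group, and their number limits the precision.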

Additional observations from a re-analysis of the deposited data

Results flagged for a closer look

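Of 54 groups of 4 arrays tested for the 9 genes with Dixon's criterion, 5 held an array far from the others, and chance alone flags about 5% of groups. These were Fth1 at 7.80 in EGFP podocytes of mouse MC151 at day 4, Aco1 at -2.56 in TdTomato podocytes of MC151 at day 4 and at -1.10 in EGFP podocytes of MC122 at day 0, and Steap3 at 2.27 in TdTomato podocytes of MC692 at day 4 and at 3.17 in EGFP podocytes of MC221 at day 7.

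The change from day 0 differed between TdTomato and EGFP podocytes by limma's interaction term for 5 of the 9 genes at day 1 and at day 4, beside 38.4% and 44.4% of all genes. At day 1 the interaction was -0.99 for Fth1, 1.70 for Slc11a2, -1.64 for Hmox1, -0.84 for Aco1 and -1.77 for Steap3. At day 4 it was -0.81 for Fth1, -1.02 for Slc11a2, 1.71 for Hmox1, -0.79 for Aco1 and -1.40 for Steap3. For Slc11a2 and Hmox1 its sign thus differed between the days. Of the 137 other iron, heme and redox genes, 72 had such a difference at day 1, 79 at day 4 and 5 at day 7, beside 38.4%, 44.4% and 2.69% of all genes. At day 4 the interaction was 5.80 for Hpx and 2.996 for Id1. The fitted values 5.36 for Hamp, 5.62 for Hamp2, 3.60 for Hebp2 and 3.28 for Bmp6 rest on groups in which some or all arrays were not well above background, and are no measured folds. Bmp6 was well above background on 1 of 4 EGFP arrays of day 4 and on 2 of 4 arrays of day 0 in each population.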

How the results depend on the processing

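No direction of a past-threshold result was reversed, and of 2763 values of the 9 genes under alternatives, 70 moved by more than the spread, 26 of them under normexp and 25 under quantile normalization. Counts at day 7 depended most on the processing. Of the 9 genes, TdTomato day 7 against day 0 gave 5, but 3 with quantile normalization, no filter or the mean of probes, 1 with only the groups compared, and 0 without both arrays of MC221. TdTomato day 7 against day 4 gave 3, but 6 with the slide as a block, 5 with the mouse as a replicate block, 0 with only the groups compared and 1 without MC221. EGFP day 7 against day 4 gave 1, but 2 with the slide as a block and 0 with the mean of probes, only the groups compared or without MC221. EGFP day 4 against day 1 gave 0, but 1 with the slide or the mouse as a replicate block, and EGFP day 4 against day 0 gave 1, but 0 with only the groups compared.

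Of the 137 other genes, TdTomato against EGFP at day 7 gave 9, but 14 with normexp, 17 with the authors' values, 18 with the slide and 15 with the mouse as a replicate block. TdTomato day 7 against day 0 gave 29, but 16 with only the groups compared and 9 without MC221. TdTomato day 7 against day 4 gave 33, but 53 with the slide, 16 with only the groups compared and 18 without MC221. EGFP day 7 against day 0 gave 13, but 20 with quantile normalization or the slide, and EGFP day 7 against day 4 gave 5, but 9 with quantile normalization, 8 with the authors' values and 15 with the slide. EGFP day 4 against day 0 gave 1, but 6 with the slide and 0 with only the groups compared. EGFP day 4 against day 1 gave 1, but 2 with the slide and 0 with normexp or only the groups compared. The interaction at day 7 gave 5, but 3 with normexp. The mouse block moved no other count past 1.5 times. Counts over all 15624 genes moved too. TdTomato day 7 against day 4 gave 1792 higher and 2041 lower, but 3897 and 2794 with the slide and 437 and 1505 with only the groups compared. TdTomato day 7 against day 0 gave 1704 and 1323, but 1475 and 372 with only the groups compared. For EGFP day 7, the counts against day 0 were 834 and 300, but 1435 and 1164 with the slide, and against day 4 they were 463 and 268, but 790 and 1053.

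Leaving out 1 array at a time gave, of the 9 genes, 0 to 4 for TdTomato day 7 against day 0 and against day 4, and 0 to 2 for EGFP day 7 against day 4. Of the 137, it gave 9 to 22 for TdTomato day 7 against day 0, 15 to 36 against day 4, 5 to 8 for TdTomato against EGFP at day 7, 0 to 1 for EGFP day 4 against day 0 and against day 1, 4 to 8 for EGFP day 7 against day 4 and 3 to 6 for the interaction at day 7. The cause of these movements was not tested, apart from the smaller number of arrays in fits that leave some out. The alternative without MC221 was chosen after seeing the data. Dim probes such as Slc40a1 and Ireb2 are limited by their signal over background.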
